A study of Chlorocebus sabaeus with 32 samples.

Results

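The retinoic acid pathway was examined through 8 genes of its synthesis, binding, signaling and breakdown, out of 33994 gene rows counted in hippocampal RNA of 32 vervet monkeys (Chlorocebus sabaeus). The genes were taken by name: the retinal dehydrogenases ALDH1A1 and ALDH1A2, the cellular binding proteins CRABP1 and CRABP2, the receptors RARA, RARB and RXRG, and the hydroxylase CYP26B1, whose row carries only a gene number. All 8 were found. Every library came from total RNA of the hippocampus, depleted of ribosomal RNA, and was labelled as from an animal under 1 year old, so the 32 libraries form 1 age class with no treatment and no control. The first digits of the titles divide the libraries into set A (14, replicates 1 to 14), set B (16, replicates 15 to 30) and set C (2, replicates 31 and 32), and the labels do not say what these digits stand for. A number later in the title was below 20000 in all 14 libraries of set A and in 7 of set B, and higher in the other 9 of set B and both of set C. The labels give no sex, exact age or housing, and each title was taken as 1 animal.

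Retinoic acid is made from retinal by the ALDH1A enzymes, is carried in the cytoplasm by the CRABP proteins, and is inactivated by CYP26 hydroxylases. In the nucleus it binds RAR proteins, which act on DNA together with RXR partners. In the brain the meninges are a well-known site of ALDH1A2 expression, CYP26 enzymes limit the reach of retinoic acid within tissue, and RARB and RXRG are known for their high expression in the striatum. In the hippocampus retinoic acid is known to bear on synaptic plasticity and on the formation of granule neurons.

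Libraries held 9347635 to 19673621 gene counts (median 16201657). Values below are CPM, read counts relative to library size as scaled by the trimmed mean of M-values. They are not divided by transcript length and were compared between libraries, not between genes. A count of 0 allows up to 3 counts, or 0.152 to 0.321 CPM depending on the library, and this limit covers counting error only. The hippocampal neuron list of 8 markers was detected in every library, with a summed level of 430.5 to 1471 CPM (median 1226 CPM). Replicates 1, 16 and 22 stood apart. Replicate 1 (set A) had the lowest median Spearman correlation with the other libraries over all genes kept, 0.954, the fewest gene counts and the largest share of reads in no feature (67.1%), and it was lowest in 4 of the 8 hippocampal markers and among the lowest 5 libraries in 7. Replicate 16 (set B), with the next lowest correlation, 0.971, also went partly against its tissue label: PROX1, ZBTB20 and FIBCD1, markers of hippocampal neurons, had their lowest values there (19.75, 108.4 and 11.2 CPM against medians of 116.3, 326.1 and 119.6 CPM). Of the 8 hippocampal markers 3 were lowest in replicate 16, 6 were among their lowest 5 values and 1, WFS1, was highest there (106 CPM against a median of 50.7 CPM). In the same library 9 of 10 striatal markers had their highest value, with a summed level of 1650 CPM against a median of 233.1 CPM. Replicate 22 (set B) ranked next for 8 of the 10 striatal markers and highest for 7 of 8 choroid plexus markers. Most relations and differences that rest on replicates 1, 16 or 22 are therefore given with and without them, or with and without the highest library. Coefficients of variation and their ranks are given over all 32 libraries only.

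**Figure D1:**
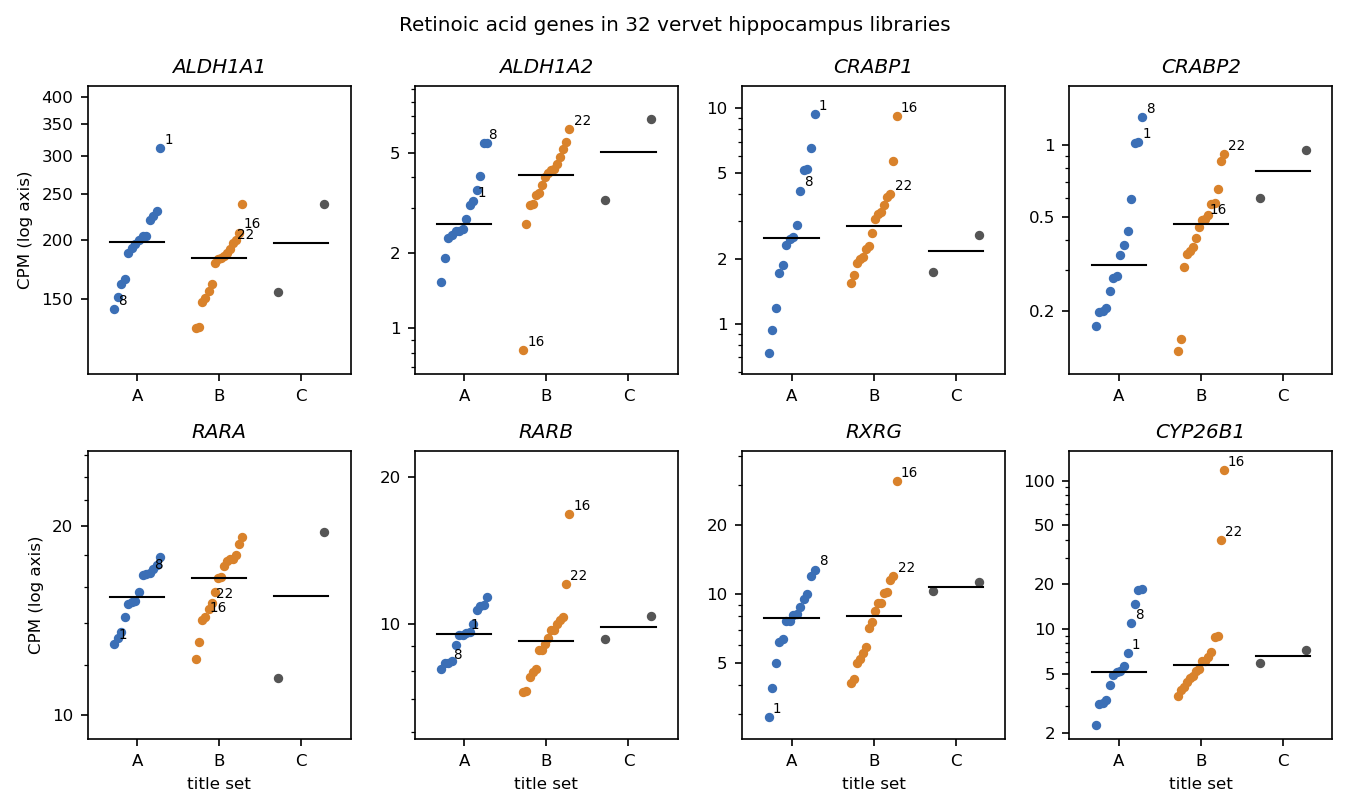
CPM of the 8 genes in each library (log axes, a separate scale for each gene), by title set, with 14, 16 and 2 libraries. Points are libraries in rising order, bars are medians, and numbers mark replicates 1, 8, 16 and 22. Replicate 16 is the highest library for CYP26B1 (117.8 CPM), RXRG (31.2 CPM) and RARB (16.8 CPM) and the lowest for ALDH1A2 (0.820 CPM).

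CYP26B1, the hydroxylase that clears retinoic acid, varied most of the 8 genes. It ranged from 2.26 CPM in replicate 12 through a median of 5.50 CPM to 117.8 CPM in replicate 16, a span of 52.1-fold. The highest library held 1437 reads of the gene and 33.04% of its CPM summed over the 32 animals. Replicate 22 followed with 39.8 CPM, then replicates 14, 13 and 11 of set A with 18.7, 18.4 and 14.7 CPM. A further library, replicate 8, reached 10.9 CPM, and the others had at most 8.91 CPM. The mean was 11.1 ± 20.7 CPM (SD, n = 32) and 7.70 ± 7.20 CPM without replicate 16. The biological coefficient of variation, the spread between libraries beyond counting noise, was 0.9003, and 0.0701% of 19959 genes had a larger one (median of all genes 0.157).

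RXRG, a retinoid X receptor, and RARB, a retinoic acid receptor, were highest in that same library. RXRG ran from 2.92 CPM in replicate 1 through a median of 8.16 CPM to 31.2 CPM in replicate 16, and the next library, replicate 8, had 12.8 CPM. Its mean was 8.66 ± 4.90 CPM (SD, n = 32) and 7.93 ± 2.69 CPM without replicate 16, so 1 animal accounts for much of its SD. RARB had a narrow range of 7.26 to 12.1 CPM in 31 libraries and 16.8 CPM in replicate 16 (median 9.50 CPM). With replicate 16 its mean was 9.60 ± 1.76 CPM and without it 9.37 ± 1.18 CPM. Replicate 22 held the next RARB value, 12.1 CPM. RARA, the third receptor, spread the least of the 7 genes past the count filter, with 11.4 to 19.6 CPM, a median of 16.1 CPM and a coefficient of variation of 0.124. Its highest and lowest values belonged to the 2 libraries of set C.

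Of the synthesis enzymes, ALDH1A1 had 130.5 CPM in the lowest library, 187.6 CPM at the median and 311.8 CPM in the highest, replicate 1. The mean was 187.9 ± 37.1 CPM (SD, n = 32) and 183.9 ± 29.95 CPM without that library. ALDH1A2 ran from 0.820 CPM in replicate 16 through 3.42 CPM to 6.84 CPM in replicate 32, and the next lowest library, replicate 2, had 1.53 CPM. Replicate 16, the highest in the hydroxylase, was the lowest in this dehydrogenase, on 10 reads. The libraries next in CYP26B1 did not share this: replicate 22 ranked 2 of 32 in ALDH1A2 (6.24 CPM), and replicate 14 was the highest of set A (5.48 CPM). The coefficients of variation were 0.193 for ALDH1A1 and 0.356 for ALDH1A2.

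The binding proteins had low counts. CRABP1 ran from 0.731 CPM in replicate 12 through 2.57 CPM to 9.41 CPM in replicate 1, with replicate 16 at 9.18 CPM, and its coefficient of variation of 0.541 was exceeded by 1.00% of genes. CRABP2 had 2 to 25 reads per library, or 0.136 to 1.32 CPM (median 0.420 CPM), with its highest value in replicate 8. It did not pass the count filter over all libraries and has no coefficient of variation here. Without the highest library the means were 3.05 ± 1.81 CPM for CRABP1 and 0.470 ± 0.260 CPM for CRABP2 (SD, n = 31).

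Replicates 16 and 22 held the top values of CYP26B1 and RARB together with the striatal markers. The dopamine receptor DRD1 had 112.7 CPM in replicate 16 and 44.5 CPM in replicate 22 against a median of 18.3 CPM. None of the 10 striatal markers was at 0 in any library. In set A their summed level was 185.8 to 284.9 CPM and in set B 204.8 to 1650 CPM. MEIS2 and MEIS1, homeobox genes of the list of genes known to respond to retinoic acid, were also highest in replicate 16 (91.7 and 25.2 CPM) and next highest in replicate 22 (47 and 21.5 CPM). Other genes of that list did not share this order: in replicate 16 RARRES1 had its lowest value of the 32 libraries (2.05 CPM), RARRES2 ranked 27, TGM2 25, PLAT 16 and NRGN 4 from the highest. In bulk tissue more cells of a type and more RNA per cell cannot be told apart, and the part of these markers in the values of the receptors and of CYP26B1 was not tested.

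Across animals CYP26B1 rose with the striatal score, the mean of z-scored log2 CPM over the list. Over 32 libraries Pearson's r was 0.80 (permutation p = 3e-05, adjusted p = 0.00132 over 88 relations of the 8 genes with 11 marker lists). Spearman's rho was 0.51 (permutation p = 0.00329, adjusted p = 0.0483). Without the 2 libraries farthest from the median striatal score r was 0.34 (rho 0.41, adjusted permutation p = 0.220), and without replicates 1, 16 and 22 it was 0.39 (rho 0.48, adjusted permutation p = 0.0884). Within set A r was 0.55 and rho 0.43, and within set B they were 0.93 and 0.51. Only r within set B passed of these 4 (adjusted permutation p = 0.0343), so the relation rests in part on replicates 16 and 22.

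For the receptors the relation with striatal markers rested on those libraries. RARB had r = 0.66 (permutation p = 0.002, adjusted p = 0.0220) and a rho of 0.22 (p = 0.236, adjusted p = 0.494), and RXRG had r = 0.60 (permutation p = 0.00164, adjusted p = 0.0206) and a rho of 0.28 (p = 0.121, adjusted p = 0.333). Without the 2 farthest libraries r was 0.02 for RARB and 0.18 for RXRG, and without replicates 1, 16 and 22 it was 0.05 and 0.0044. Within set A r was 0.18 for RARB and 0.37 for RXRG, and within set B it was 0.85 (adjusted permutation p = 0.0226) and 0.74 (0.12). CYP26B1 also had r = 0.58 with thalamic markers (permutation p = 0.00111, adjusted p = 0.0206), with a rho of 0.49 (p = 0.00437, adjusted p = 0.0549). That r was 0.54 without the 2 farthest libraries, 0.47 within set A and 0.66 within set B, none of which passed (adjusted permutation p = 0.0605, 0.362 and 0.12). Without replicates 1, 16 and 22 that r was 0.29 (adjusted permutation p = 0.451), and the summed thalamic level was highest in replicate 16 (173 CPM against a median of 80.2 CPM). SLC17A6 alone gave 109.6 CPM of that sum. Of the 5 thalamic markers 2 were highest in replicate 16 and 1, ZIC1, was lowest there (6.07 CPM). RARA had no relation with a marker list that passed by rho. Its r with hippocampal neuron markers was 0.46 (permutation p = 0.00631, adjusted p = 0.0479) with a rho of 0.42 (p = 0.0168, adjusted p = 0.117). Without the 2 farthest libraries that r was 0.48 (adjusted permutation p = 0.0881), and it was 0.52 within set A (0.27) and 0.47 within set B (0.325). With replicates 1, 16 and 22 left out it was 0.48 (adjusted permutation p = 0.107), so it passed in none of these subsets.

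**Figure D2:**
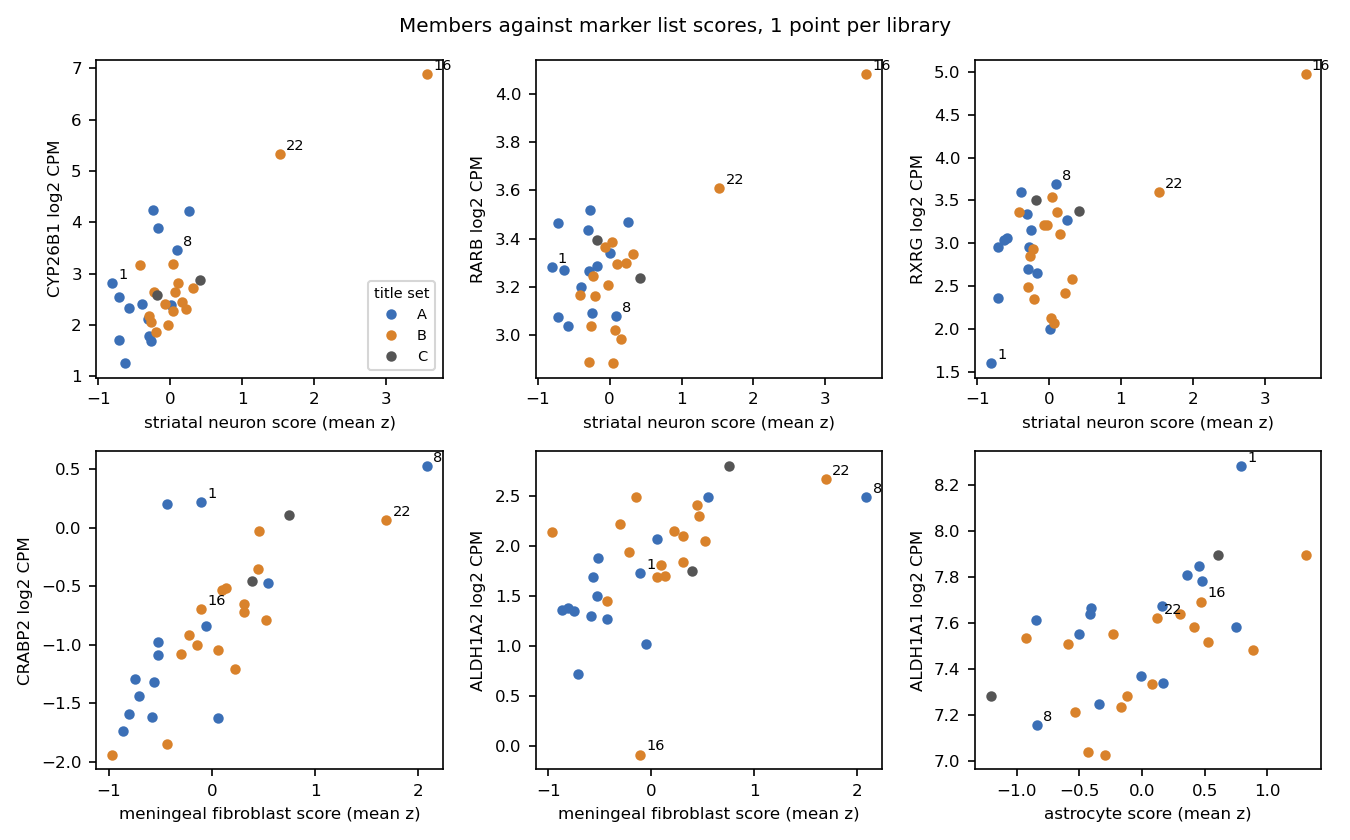
Log2 CPM of 6 gene and list pairs (y axes) against the marker list score (x axes, mean z over the list), with 1 point per library, colored by title set. Replicates 1, 8, 16 and 22 are numbered. Replicates 16 and 22 lie far to the right in the striatal panels, while CRABP2 and ALDH1A2 rise along the meningeal fibroblast score (rho 0.74 and 0.65 over 32 libraries).

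CRABP2 and ALDH1A2 followed the meningeal fibroblast markers, a list of 11 genes such as the collagens COL1A1 and COL3A1 and the proteoglycan DCN. For CRABP2 r was 0.74 and rho 0.74, each with a permutation p = 1e-05, the smallest possible here, and an adjusted p = 0.00088 over 88 relations. Without the 2 farthest libraries r was 0.67, and without replicates 1, 16 and 22 it was 0.77. Within set A r was 0.68 and rho 0.67, and within set B they were 0.81 and 0.75, of which only the r of 0.81 passed (adjusted permutation p = 0.00616). The relation therefore had the same sign in both sets, although CRABP2 rests on few reads.

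For ALDH1A2 the relation with the meningeal list had r = 0.57 (permutation p = 0.00125, adjusted p = 0.0206) and rho = 0.65 (p = 8e-05, adjusted p = 0.00352). Without the 2 farthest libraries r was 0.50 and did not pass (adjusted permutation p = 0.0623), while rho was 0.58 and did (adjusted permutation p = 0.0204). Without replicates 1, 16 and 22 r was 0.63 (adjusted permutation p = 0.0132). Within set A r was 0.72 and within set B 0.33, and neither set passed by rho (adjusted permutation p = 0.524 and 0.687). Endothelial markers also went with ALDH1A2, at r = 0.51 (permutation p = 0.00411, adjusted p = 0.0362) and rho = 0.58 (p = 0.00081, adjusted p = 0.0143). That r was 0.57 without the 2 farthest libraries (adjusted permutation p = 0.0444), 0.69 within set A (0.191) and 0.25 within set B (0.637). With replicates 1, 16 and 22 left out, that r was 0.47 and no longer passed (adjusted permutation p = 0.107), while rho was 0.56 (adjusted permutation p = 0.034). The summed meningeal level was 72.8 to 541.4 CPM in set A (median 88.0 CPM) and 103.9 to 450.9 CPM in set B (median 158.3 CPM), with its highest values in replicates 8 and 22, and none of its 11 genes was at 0 in any library. What these cells contributed to ALDH1A2 or CRABP2 was not tested.

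ALDH1A1 went with astrocyte markers. The astrocyte list of 6 genes, among them GFAP and the glutamate transporters SLC1A2 and SLC1A3, had r = 0.58 with it (permutation p = 0.0005, adjusted p = 0.0147) and rho = 0.57 (p = 0.00066, adjusted p = 0.0143). Without the 2 farthest libraries r was 0.53 (adjusted permutation p = 0.0605), and within sets A and B it was 0.61 and 0.59 (0.27 and 0.141), so none of these passed. The call by rho ended without the 2 farthest libraries (rho 0.51, adjusted permutation p = 0.0683). It also ended without replicates 1, 16 and 22 (rho 0.50, adjusted permutation p = 0.0705), although r there was 0.53 and passed narrowly (adjusted permutation p = 0.0496). The astrocyte markers did not move as 1 in replicate 1, where ALDH1A1 was highest. Of the 6, SLC1A2 and SLC1A3 were highest there, while GFAP was lowest (672.6 CPM against a median of 1556 CPM) and AQP4 ranked 22. With hippocampal neuron markers ALDH1A1 had r = -0.49 (adjusted permutation p = 0.0479) and CRABP1 r = -0.51 (adjusted permutation p = 0.0298), which were -0.14 and -0.06 without the 2 farthest libraries and -0.12 and -0.0097 without replicates 1, 16 and 22. With microglial markers ALDH1A1 had r = 0.53 (adjusted permutation p = 0.0206), or 0.32 without the 2 farthest libraries and 0.41 without replicates 1, 16 and 22. In all, 6 of the 88 relations passed by rho and 12 by r, with 5 in both. By rho, 4 of them belonged to ALDH1A2 and CRABP2, 1 to ALDH1A1 and 1 to CYP26B1, and none passed within a set. Without replicates 1, 16 and 22, ALDH1A2 also passed by rho with thalamic markers (0.55) and, in the opposite direction, with hippocampal neuron markers (-0.55).

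**Figure D3:**
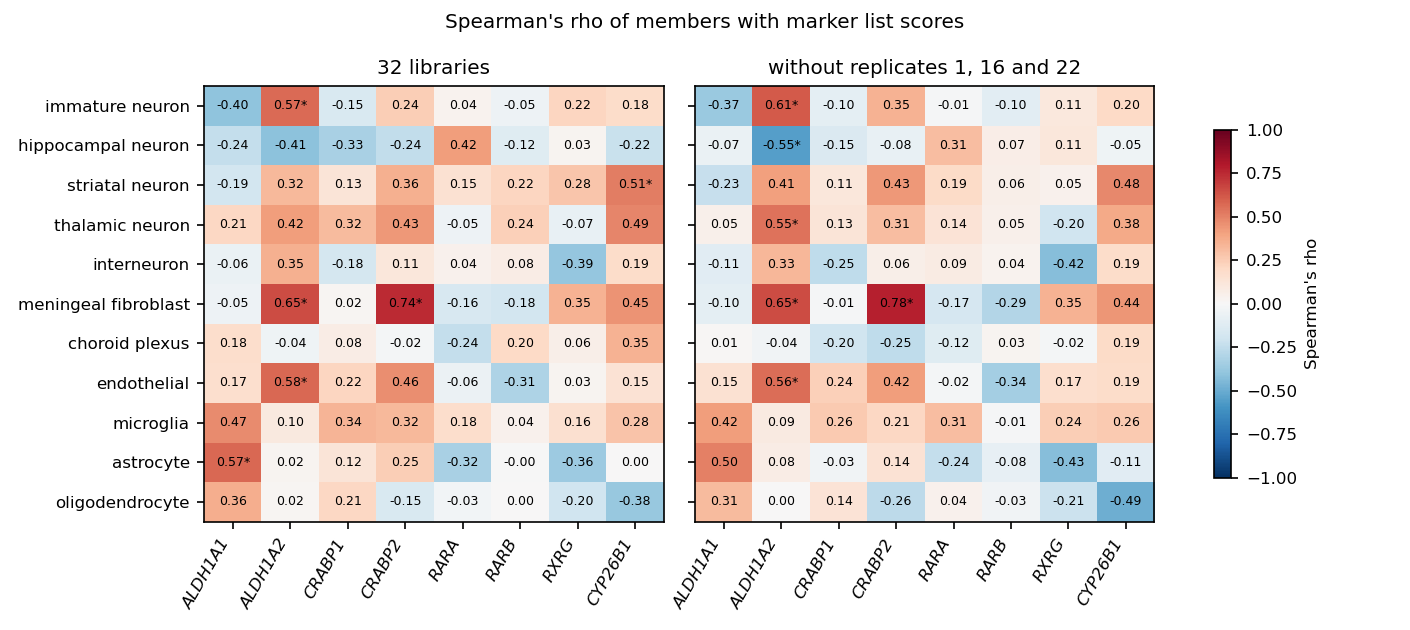
Spearman's rho of each gene (columns) with 11 marker list scores (rows), over 32 libraries on the left and without replicates 1, 16 and 22 on the right. Color gives rho from -1 to 1 and asterisks mark an adjusted permutation p under 0.05. ALDH1A2 and CRABP2 with meningeal fibroblast markers keep an asterisk on both sides, whereas CYP26B1 with striatal markers and ALDH1A1 with astrocyte markers lose theirs.

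Among the 8 genes themselves 1 of 28 pairs passed by rho. CRABP2, a carrier of retinoic acid, rose with CYP26B1, with rho = 0.62 (permutation p = 0.00017, adjusted p = 0.00476 over 28 pairs) and r = 0.47 (p = 0.0051, adjusted p = 0.0357). Without the 2 libraries farthest in CRABP2 r was 0.50 and did not pass, and without replicates 1, 16 and 22 rho was 0.58. Within sets A and B rho was 0.61 and 0.45, neither of which passed, and CRABP2 rests on few reads. RXRG with CYP26B1 passed by r alone, with r = 0.585 (permutation p = 0.00092, adjusted p = 0.0258) against a rho of 0.47 (p = 0.00704, adjusted p = 0.0986). Its r was 0.18 within set A, 0.81 within set B, 0.40 without the 2 farthest libraries and 0.32 without replicates 1, 16 and 22. RARB with CYP26B1 had r = 0.54 (permutation p = 0.00505, adjusted p = 0.0357), a rho of 0.14 (p = 0.429, adjusted p = 0.758) and an r of 0.25 without the 2 farthest libraries. That r was -0.09 within set A and 0.79 within set B, and -0.04 without replicates 1, 16 and 22. CRABP1 with CYP26B1 had r = 0.50 (permutation p = 0.00373, adjusted p = 0.0357), a rho of 0.38 (p = 0.0335, adjusted p = 0.234) and an r of 0.38 without the 2 farthest libraries, with r of 0.49 and 0.59 within sets A and B and 0.35 without replicates 1, 16 and 22. Between the 2 synthesis enzymes rho was -0.08 (permutation p = 0.651).

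Genes whose pattern was most like that of each member were ranked by rho over the 32 libraries among 14433 named genes with a mean of at least 1 CPM. For CRABP2 the closest was DCN at 0.82, a member of the meningeal list, followed by FPGS at 0.77 and COL23A1 at 0.73. COL23A1 was also the closest to CYP26B1 at 0.74, ahead of XKR4 (0.71) and C2CD4C (0.68). ALDH1A2 was closest to NTN4 (0.76), LAMC3 (0.76) and CDKN1C (0.75), and ALDH1A1 to TLR4 (0.76), SDCCAG8 (0.73) and NR3C1 (0.73). RXRG was closest to SLC6A7 (0.78), GLCE (0.77) and NPDC1 (0.76), RARA to CNIH2 (0.76), PTPRF (0.76) and ZEB2 (0.74), and RARB to LACE1 (0.69), CYLD (0.66) and TPTE2 (0.65). CRABP1 had the weakest matches, ADAM33 (0.62), ZNF860 (0.61) and PIK3AP1 (0.59). Without the member's highest library these rho lay between 0.54 (PIK3AP1 with CRABP1) and 0.89 (SLC6A7 with RXRG).

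Libraries of set B were then compared with those of set A, and none of the 8 genes passed. By edgeR's quasi-likelihood test 2987 of 23977 genes were called, which is 12.5%, and 0 of 8 members were (0 also by DESeq2 and by limma-trend). At an unadjusted p under 0.05 there were 0 members too, beside 6542 of all genes, or 27.28%. Groups of 8 genes are too few to read much from this. Of the 2987 calls 1705 were higher and 1282 lower in set B, a split that was 2310 and 985 when libraries were scaled by totals alone. ALDH1A2 was at 1.53 to 5.48 CPM in set A (median 2.599 CPM) and 0.820 to 6.24 CPM in set B (median 4.09 CPM), with 15 of 16 libraries of set B above the median of set A. The groups overlapped, and the log2 difference was 0.37 ± 0.19 (SE, 95% interval -0.01 to 0.76, adjusted p = 0.199). It was 0.13 where only libraries with title numbers below 20000 were compared.

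CYP26B1 had 2.26 to 18.7 CPM in set A (median 5.13 CPM) and 3.53 to 117.8 CPM in set B (median 5.71 CPM). The medians were thus close, whereas the means were 7.60 ± 5.71 and 14.8 ± 28.8 CPM (SD). The log2 difference was 0.95 ± 0.495 (SE, 95% interval -0.05 to 1.96, edgeR adjusted p = 0.211). Without replicate 16 it was 0.06, and without replicates 1, 16 and 22 its sign turned, to -0.44 (adjusted p = 0.304). DESeq2, which replaces outlying counts, gave 0.04. RXRG had 7.79 ± 2.81 CPM in set A and 9.15 ± 6.41 CPM in set B, with a log2 difference of 0.23 ± 0.23 (95% interval -0.24 to 0.70) that was -0.03 without replicate 16. Both differences therefore turn on 1 animal.

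The other members differed less between sets A and B. ALDH1A1 had a log2 difference of -0.17 ± 0.10 (SE, 95% interval -0.37 to 0.03), from 199.4 ± 42.0 CPM in set A to 176.7 ± 28.8 CPM in set B. RARA was at 15.6 ± 1.61 and 16.2 ± 2.06 CPM, and its difference of 0.06 had an interval of -0.08 to 0.21. RARB was at 9.59 ± 1.08 and 9.58 ± 2.30 CPM, with a difference of 0.0019 and an interval of -0.19 to 0.19. CRABP1, at 3.38 ± 2.47 and 3.27 ± 1.91 CPM, and CRABP2, at 0.480 ± 0.373 and 0.475 ± 0.214 CPM, had intervals of -0.64 to 0.57 and -0.58 to 0.59 on the log2 scale. The data thus bound the difference of RARA and RARB closely and those of the binding proteins only loosely. CRABP2 could be tested here because the count filter was applied by title set, the smallest of which, set C, holds 2 libraries. It did not pass that filter when set C was left out.

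Within set B, libraries with high title numbers (9) were compared with those with low ones (7). No gene was called by edgeR (0 of 21488, which is 0%, with 3023 at an unadjusted p under 0.05, while DESeq2 called 198 and limma-trend 0). Of the 7 members tested, CRABP2 having failed the filter, 0 had an unadjusted p under 0.05. CYP26B1 had the largest difference, -1.25 ± 0.74 (SE, 95% interval -2.80 to 0.30), which was 0.62 without replicate 16 and -2.02 without replicate 22, so its direction rests on which of these animals is in the comparison. RXRG had -0.60 ± 0.34, and -0.11 without replicate 16.

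Because the series concerns hippocampal development and the labels give no exact age, the members were also fitted against an immature neuron score, the mean of z-scored log2 CPM over 12 genes of young neurons such as DCX, SOX11 and STMN1. The score describes the libraries and is not an age. The summed level of its genes had a median of 1934 CPM in set A and 3141 CPM in set B, so results by set and by score overlap. Many genes followed it: 6750 of 19947, which is 33.8%, with 3337 higher and 3413 lower as the score rose (4379 and 2681 with libraries scaled by totals alone). Of the 7 members tested, 2 passed, the 2 synthesis enzymes, and they went in opposite directions, a share near that of all genes.

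ALDH1A2 rose by 0.26 ± 0.09 log2 units per SD of the score (SE, 95% interval 0.08 to 0.45, edgeR adjusted p = 0.0256). Without replicate 32 the slope was 0.23 and the call was lost (adjusted p = 0.0549), whereas without replicates 1, 16 and 22 it was 0.27 (adjusted p = 0.00861). The rank relation with the score gave rho = 0.57 (permutation p = 0.0008, adjusted p = 0.0143), and r was 0.42 (p = 0.015, adjusted p = 0.0942) or 0.49 without the 2 farthest libraries. The slope was 0.68 within set A and 0.10 within set B, neither of which passed (adjusted p = 0.281 and 0.819). With set as a factor it was 0.23 and did not pass (adjusted p = 0.397). The difference between sets A and B in the slope was -0.58 ± 0.33 (adjusted p = 0.943), so a difference was not shown. The meningeal and endothelial scores moved with ALDH1A2 as well, as given above.

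ALDH1A1 fell by 0.11 log2 units per SD of the score, with an SE of 0.05 (slope interval -0.21 to -0.02, edgeR adjusted p = 0.0479). This call was at the edge of the threshold: it was lost when any of 23 of the 32 libraries was left out, and the slope was -0.07 (adjusted p = 0.174) without replicate 1, where ALDH1A1 is highest. Within set A the slope was -0.30 and within set B -0.11, and neither passed (adjusted p = 0.481 and 0.431).

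No receptor passed in the fit on the score. RARA had a slope of 0.0084 with an interval of -0.06 to 0.08, RARB -0.01 with -0.11 to 0.08, and RXRG 0.12 with -0.13 to 0.36. CYP26B1 had 0.14 ± 0.30 (SE) with an interval of -0.47 to 0.74, and 0.0095 without replicate 16. CRABP1 had -0.22 ± 0.14 (adjusted p = 0.232). The differences between sets A and B in these slopes were not called for any member or any of 21511 genes (edgeR, 0%, 1013 genes at an unadjusted p under 0.05, 0 of 7 members, and limma-trend 0 genes).

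**Figure D4:**
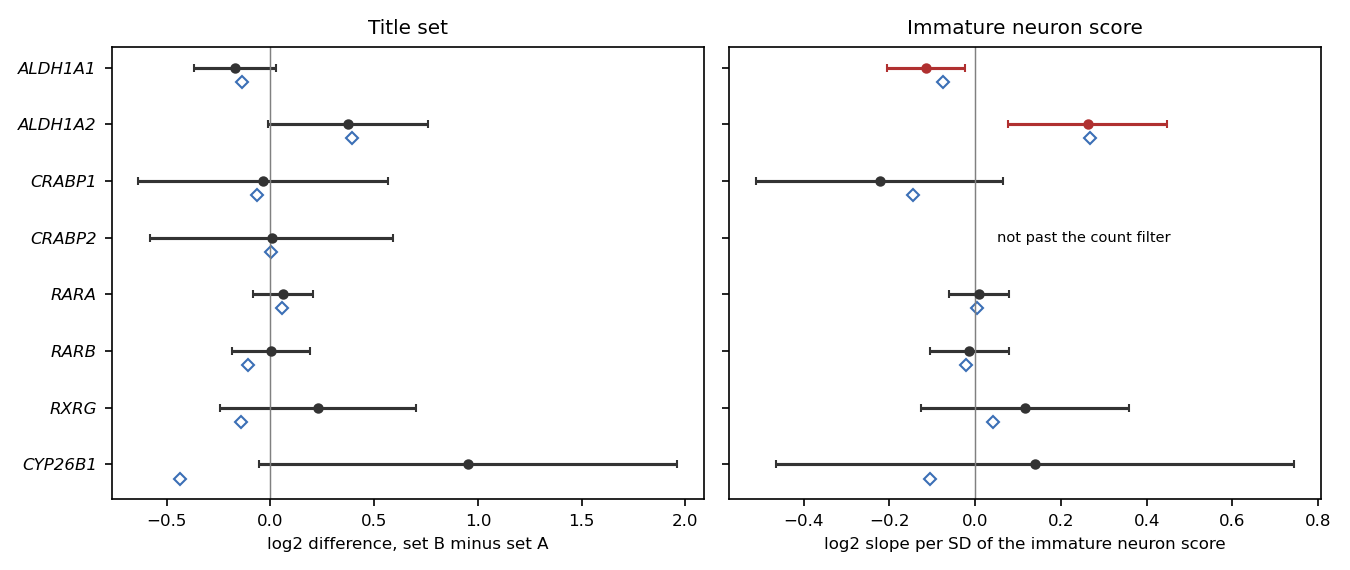
Log2 difference between title sets (set B minus set A, left) and log2 slope per SD of the immature neuron score (right) of the 8 genes. Circles with bars are edgeR estimates with 95% intervals, red where the adjusted p is under 0.05, and open diamonds are estimates without replicates 1, 16 and 22. ALDH1A2 (slope 0.26) and ALDH1A1 (slope -0.11) are the red points, and the difference between sets of CYP26B1 goes from 0.95 to -0.44 between circle and diamond.

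The rest of the pathway was described by 34 other genes of retinoid handling, of which 32 were tested between sets A and B. STRA6, the membrane receptor that takes up retinol from its plasma carrier, had 1.42 ± 0.867 CPM in set A and 2.38 ± 1.11 CPM in set B (SD). Its log2 difference of 0.74 ± 0.25 (SE, edgeR adjusted p = 0.0478) was lost when any of 22 libraries was left out, with adjusted p up to 0.0957. Its slope on the score was 0.55 ± 0.11 (adjusted p = 0.000259). PPARD, a nuclear receptor that can also be activated by retinoic acid, had 29.3 to 43.9 CPM in set A and 24.2 to 36.3 CPM in set B, where 0 of 16 libraries exceeded the median of set A. It fell by 0.32 log2 units with an SE of 0.07 (edgeR adjusted p = 0.00216), and by 0.19 per SD of the score with an SE of 0.03 (adjusted p = 5.12e-06). As the genes of the score were themselves higher in set B, the difference and the slope of a gene are not independent results. The reductase RDH13 rose by 0.22 ± 0.07 between sets A and B (adjusted p = 0.0351), a call lost without any of 11 libraries.

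In all, 3 of the 32 genes were higher and 1 lower in set B, beside 7.11% and 5.35% of all genes, with a median log2 difference of 0.0065 against 0.0054 for all genes. Within set B the groups of title number gave 0 of 31. On the immature neuron score 5 of 30 were higher and 4 lower, beside 16.7% and 17.1% of all genes, with a median slope of 0.02 against -0.0011. The carriers and uptake genes gave 2 of 4 higher, STRA6 among them, and the retinol and retinal oxidoreductases 2 of 5 (RDH13 and RDH11). The RDH11 call (slope 0.07 ± 0.03, edgeR adjusted p = 0.0313) was lost without any of 5 libraries. The RDH13 call (slope 0.10 ± 0.03, edgeR adjusted p = 0.0137) was lost with set as a factor (adjusted p = 0.397). The other receptors gave 2 of 5 lower (PPARD, and RARG with a slope of -0.17 ± 0.04, edgeR adjusted p = 0.00315). The cofactor NRIP1 was higher (slope 0.11 ± 0.04, edgeR adjusted p = 0.0322), a call lost without any of 5 libraries. Of 7 genes known to respond to retinoic acid only RARRES2 passed, and it was lower (slope -0.18 ± 0.05, adjusted p = 0.00667). The other CYP26 gene tested, CYP26A1, had 3.22 ± 1.03 CPM and did not pass in any of the comparisons.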

How the data were processed

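Hippocampal RNA of 32 vervet monkeys was sequenced after ribosomal RNA depletion in strand-preserving libraries, per the labels' protocols. The authors deposited unnormalized read counts per gene, made with STAR and HTSeq per the submitters' processing notes. Their versions, the genome build, the annotation and the strand setting are not stated in those notes. In the reference gene table for mChlSab1.0.hap1, ALDH1A2 and RARB each overlap 2 pseudogenes or noncoding genes, so their counts are less certain, and the other 6 members overlap none. That table gave the symbol CYP26B1 to its gene number. Of 33999 rows, 5 count reads outside genes and were left out of library sizes. They include reads in no feature, 57.0% ± 3.61 (SD, n = 32) of all. Every pair of libraries differed beyond sampling noise (lowest chi-square per degree of freedom 4.03). Titles begin with 2009 in set A, 2010 in set B and 2011 in set C.

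Counts were scaled by TMM, filtered by filterByExpr (minimum count 10) and tested by edgeR 4.0.16's quasi-likelihood test under R 4.3.3, with Benjamini-Hochberg adjustment over all genes tested and a threshold of 0.05. The fit between sets A and B used all 32 libraries. SE is the log2 estimate divided by the root of F. Correlations used log2 CPM with a prior count of 2 and two-sided permutation tests with 100000 resamples in Python with scipy 1.17.1, adjusted over the 28 or 88 relations. No measure fell into separate clusters by the rule used (a gap over 0.25 of its range with 3 libraries on each side). Of 4 blood markers 2 were measured and 1 passed the filter, so blood had no score, and its sum was 0.219 to 10.95 CPM. Alternatives were DESeq2 1.42.0, limma-trend (limma 3.58.1), other scalings and filters, covariates and subsets. Leaving out replicates 1, 16 and 22 together was chosen after seeing the data. Scripts were tested on simulated data. All 8 members are named in every comparison. Of other retinoid genes, the rule named up to 6 called ones with the smallest p per comparison (RDH11, RDH13 and NRIP1 were added on the score after their values were seen) and allowed 2 of the highest level per role. Likeness names 3 genes of highest rho per member. The members and lists were chosen with earlier results of these data known. Libraries of a set are taken as separate animals from their titles. Nothing states separate processing, so p-values measure the spread between these libraries. CYP26C1 was not analysed here. Some other genes of the lists are counted but not reported here by name.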

Additional observations from a re-analysis of the deposited data

Results flagged for a closer look

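Library values were compared with their group in the 2 groups of title number in set B, the only sets of 4 to 10 libraries. Of 16 sets of values checked (8 genes in each), 5 held a library whose gap to its nearest neighbor exceeded Dixon's 95% critical value. The usual rate of 1 in 20 does not apply, because the values were CPM without logs and the sets share libraries. Replicate 16, which gave 4 of the 5, had also been singled out before. The gaps therefore describe these libraries and do not test chance. Replicate 16 stood apart among the 7 libraries with low numbers for 4 genes. Its value was 117.8 CPM for CYP26B1, 31.2 CPM for RXRG, 16.8 CPM for RARB and 9.18 CPM for CRABP1. The gap took 0.953, 0.750, 0.741 and 0.693 of the group's range. Among the 9 libraries with high numbers replicate 22 stood apart for CYP26B1 with 39.8 CPM, a gap of 0.862 of the range.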

How the results depend on the processing

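No member was called between sets A and B or groups of title number under any alternative run. Of the counts of genes called, that between sets A and B was 1162 with low title numbers only and 1 when adjusted for the immature neuron score. Leaving out each library gave 2237 (without replicate 29) to 3870 (without replicate 1). The count between groups of title number was 198 by DESeq2 and 0 to 21 when each library was left out (above 0 without replicate 16, 26, 29 or 30). The count on the immature neuron score was 2027 with set as a factor, 95 within set A, 1171 within set B, and 6146 to 7001 when each library was left out. The difference of slopes between sets A and B gave 1 gene without replicates 1, 16 and 22. Of correlations, 0 pairs and 0 list relations passed by rho within set A and 0 and 0 within set B, which hold fewer animals. RDH13's slope on the score reversed to -0.028 within set A. The cause of these changes was not tested. No paired analysis was possible because the libraries form 1 labelled group. CRABP2, with 2 to 25 reads per library, is limited most by depth.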

Other observations

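Marker lists that no member followed in rank also differed between libraries. The oligodendrocyte list of 6 genes, which includes MBP, spanned 1898 to 8851 CPM in summed level, and its rho with CYP26B1 was -0.38 over 32 libraries and -0.49 without replicates 1, 16 and 22. TTR, the plasma carrier of thyroid hormone and of the retinol-binding protein, had a median of 1.84 CPM and reached 383.9 CPM in replicate 22 and 35.0 CPM in replicate 8. These are also the libraries with the highest summed meningeal levels, and CYP26B1 ranked among the highest 6 of 32 in both.

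Replicate 1 had the lowest value of several retinol enzymes and carriers. RDH11, RDH13, RDH14, RBP4 and LRAT were at 24.2, 19.9, 7.90, 20.8 and 0.282 CPM there, each the lowest of 32 libraries, against medians of 39.5, 24.3, 19.02, 35.5 and 2.70 CPM. The low values were not limited to these roles, as RXRB, FABP5, NRIP1, NCOA2 and RXRG were also lowest there. The same library had the highest ALDH1A1, CRABP1, PPARD and TGM2 values. It is also the library with the fewest gene counts and the lowest correlation with the others. These genes were singled out after their values were seen.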
